A study of Schizosaccharomyces pombe with 36 samples.

Results

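Fission yeast, Schizosaccharomyces pombe, was studied here through the 8 wild type libraries of a series of 36 polymerase usage libraries: 4 in which DNA polymerase delta was marked and 4 in which DNA polymerase epsilon was marked. The libraries were chosen by their titles alone, and the comparison asks which polymerase made which strand, how closely both maps mirror each other, and where the mirror breaks.

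At a replication fork the leading strand is made continuously, mainly by Pol epsilon, and the lagging strand is made in short Okazaki fragments, mainly by Pol delta. In polymerase usage sequencing (Pu-seq) a mutant polymerase puts extra ribonucleotides into the strand it makes, cells that cannot remove them keep them there, alkali breaks the DNA at these sites, and each broken end is assigned to a strand. To the right of an initiation site, where forks move right, the forward strand (written 5′ to 3′ from left to right) is the leading strand, so Pol epsilon ends are known to pass from the reverse to the forward strand at such a site and Pol delta ends the other way.

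All 8 libraries came from h- cells with rnh201-RED:kan, described as deficient in recognising ribonucleotides, and with ade6-704, leu1-32 and ura4-D18, grown in YE medium to log phase. Pol delta libraries came from strain 856, which carries cdc6-L591G in the catalytic subunit of Pol delta. Pol epsilon libraries came from strain 655, which carries cdc20-M630F in that of Pol epsilon. Each polymerase was measured at 25 °C and at 34 °C with 2 replicates, and a replicate number at 1 temperature is called a pair below. With 1 strain per polymerase, polymerase and strain cannot be told apart, and nothing in the labels says that replicates were separate cultures, so p-values measure only the spread between libraries.

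Libraries held between 8092162 and 24241937 ends in bins of 300 bp, with a median of 173 to 480 ends per bin. For a share of 50%, the 95% Wilson interval reached 4.46 to 7.37 percentage points to each side in a median bin and 1.38 to 2.31 points in a median window of 3000 bp, which covers counting error only. Both libraries of replicate 1 at 25 °C stood apart, with the steepest slopes of the strand ratio on A minus T skew of the 8 libraries (slopes by pair are given below). Replicate 2 at 25 °C went against its label at ura4, a gene of uracil synthesis that ura4-D18 removes: ends per bin over ura4, relative to the library's median bin, were 1.27 in Pol delta and 0.295 in Pol epsilon, against 0 to 0.103 in the other 6 libraries. Results are therefore given without either pair where that changes them. The bins inside rnh201 held 0.108 to 0.247 of the median bin in all 8 libraries, while those inside cdc6 and cdc20 held 0.853 to 1.05.

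Sequences of 4 bins from places described below are printed as examples, each on the forward strand of RefSeq assembly ASM294v3. The first pair lies in genes where both polymerases left more ends on the same strand, with A and C in capitals. The bin in bbc1 is chrI:4108501-4108800, and A and C make up 57% of it, a share that 6.34% of all bins reach. The bin in glt1 is chrI:3306901-3307200, with 38.3% A and C, and 0.653% of bins have as little.
bbc1: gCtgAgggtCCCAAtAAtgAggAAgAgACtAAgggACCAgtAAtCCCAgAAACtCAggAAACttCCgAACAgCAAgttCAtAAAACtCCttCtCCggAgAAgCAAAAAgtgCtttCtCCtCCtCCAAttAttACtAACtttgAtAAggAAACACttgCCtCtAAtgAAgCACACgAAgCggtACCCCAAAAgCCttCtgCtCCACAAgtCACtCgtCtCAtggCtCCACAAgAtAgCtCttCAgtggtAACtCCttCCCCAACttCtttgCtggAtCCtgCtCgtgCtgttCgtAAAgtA
glt1: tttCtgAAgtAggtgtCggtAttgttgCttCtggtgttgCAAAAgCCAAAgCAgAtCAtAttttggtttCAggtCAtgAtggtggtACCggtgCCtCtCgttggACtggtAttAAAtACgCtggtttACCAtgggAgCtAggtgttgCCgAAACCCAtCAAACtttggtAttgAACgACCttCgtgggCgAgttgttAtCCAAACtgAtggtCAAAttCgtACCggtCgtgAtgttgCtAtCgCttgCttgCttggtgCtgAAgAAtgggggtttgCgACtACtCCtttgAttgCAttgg
The bin of the initiation site beside hus5, chrI:1095901-1096200, is 72.7% A and T, a share that 5.26% of bins reach. Runs of at least 4 A or 4 T are in capitals, and a run of A on the forward strand is a run of T on the reverse strand. It holds 8 runs, and 31.7% of all bins hold at least as many.
site beside hus5: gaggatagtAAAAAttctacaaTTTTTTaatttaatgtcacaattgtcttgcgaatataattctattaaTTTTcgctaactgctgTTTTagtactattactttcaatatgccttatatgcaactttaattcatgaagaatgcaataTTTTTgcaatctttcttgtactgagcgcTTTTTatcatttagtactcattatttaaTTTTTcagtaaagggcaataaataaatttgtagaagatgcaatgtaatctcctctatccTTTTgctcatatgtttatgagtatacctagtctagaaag
The bin with the most Pol delta ends in a stretch beside the mating-type gene mat1-Mc, chrII:2115901-2116200, has 8 G among its 300 bases and 112 C, so its A and C share of 64.7% is reached by 0.148% of bins. No letter is marked.
bin beside mat1: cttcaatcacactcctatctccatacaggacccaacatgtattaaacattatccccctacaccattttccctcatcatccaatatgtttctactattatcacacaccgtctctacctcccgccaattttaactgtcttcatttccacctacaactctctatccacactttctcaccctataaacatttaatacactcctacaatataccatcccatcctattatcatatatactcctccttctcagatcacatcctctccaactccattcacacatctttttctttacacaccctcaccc

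The polymerases used opposite strands across most of the genome. Beside hus5, which encodes the SUMO-conjugating enzyme, the bin printed above held 17.5% and 22.1% of Pol delta ends on the forward strand at 25 °C and 30.2% and 30.7% at 34 °C. The same bin held 66.3% and 81.6% of Pol epsilon ends there at 25 °C and 80.5% and 79.3% at 34 °C. No Pol delta library overlapped a Pol epsilon library. In the bin to its left, by contrast, Pol delta held 29.0%, 28.7%, 40.7% and 27.3% and Pol epsilon 21.2%, 28.6%, 36.4% and 23.8% (25 °C replicates 1 and 2, then 34 °C), so the groups overlapped. In the bin to its right Pol delta held 8.0% to 13.7% and Pol epsilon 80.5% to 93%, with no overlap.

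**Figure D1:**
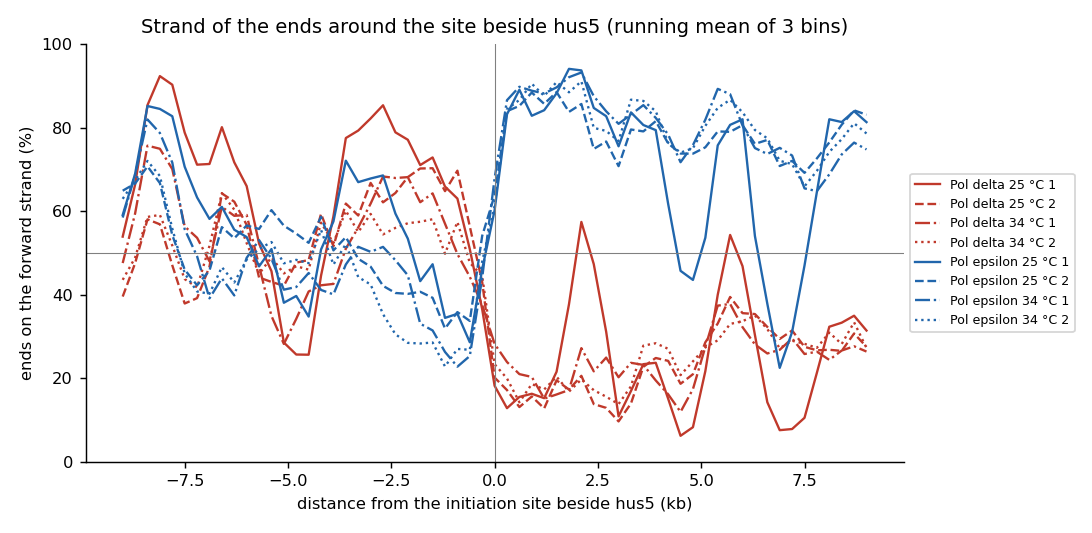
Percent of ends on the forward strand around the initiation site beside hus5, as a running mean over adjoining 300 bp bins, by distance from the site in kb. There is 1 line per library, with Pol delta and Pol epsilon in different colours. Before smoothing, the bin of the site held 17.5% to 30.7% in the 4 Pol delta libraries and 66.3% to 81.6% in the 4 Pol epsilon libraries, so the lines differ from these values.

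Across the 4180 windows of 3000 bp, the log2 ratio of forward to reverse ends differed between polymerases in 3295 windows (78.8%) by edgeR's quasi-likelihood test with Benjamini-Hochberg adjustment at 0.05. Pol delta was the more forward in 1694 of them (40.5% of windows) and Pol epsilon in 1601 (38.3%), and the median size of the difference over all windows was 1.86 on the log2 scale. The 4 Pol delta libraries did not overlap the 4 Pol epsilon libraries in 3124 windows (74.7%). Among annotated classes the switch was called in 90.7% of 162 windows with ribosomal protein genes, but in 39.5% of 43 centromere windows and 38.8% of 67 windows in the outer 50 kb of chromosomes I and II.

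The widest differences toward forward Pol delta were in windows named for bqt3, chk1, neo1, pts1 and spf1, between 5.69 and 5.90 on the log2 scale. In the window of bqt3, whose protein helps hold telomeres at the nuclear membrane, Pol delta put 96.2%, 88.6%, 92.3% and 88.3% of ends on the forward strand (25 °C replicates 1 and 2, then 34 °C) and Pol epsilon 26.6%, 17.7%, 13.4% and 11%. Every Pol delta library lay above every Pol epsilon library, and edgeR's adjusted p was 2.1e-05. In the window of chk1, the checkpoint kinase, Pol delta held 81.0%, 87.5%, 83.9% and 87.6% and Pol epsilon 9.99%, 10.8%, 8.5% and 7.71%. The widest differences the other way were in windows of SPAC3H5.11, cmk2, enp2, SPAC2F3.16 and SPAC24C9.09, from -5.91 to -5.68. In SPAC3H5.11 Pol delta held 6.96% to 12.6% of ends on the forward strand and Pol epsilon 85.9% to 89.8%, and the groups again did not overlap (adjusted p = 2.2e-06, edgeR). For temperature, 0 windows (0%) were called in the difference of the switch between 34 °C and 25 °C by edgeR, where 26 had an unadjusted p under 0.05, and DESeq2 called 0, with 84 unadjusted. With a pair block within temperature, edgeR called 0, with 337 unadjusted. In simulated counts the strand fit found 19 of 100 switches of 0.5 on the log2 scale, taken as the mean over both temperatures. How often it finds a difference between temperatures was not simulated. The 0 calls do not show that the switch was equal at both temperatures. Without the pair of 25 °C replicate 1, edgeR called 12.

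In windows with a strong fork direction in stn1-226, each polymerase left most of its wild type ends on its known strand. A difference between them in that share was not detected. stn1-226 is a temperature-sensitive mutant of a telomere-capping protein, and its strains carry an rnh201 deletion. Fork direction was read from the strand ratios of Pol epsilon against Pol delta in its 8 libraries, so wild type values did not choose the windows. That reading already assumes the known strands. The shares therefore show how far wild type repeats the stn1-226 pattern and cannot test which polymerase makes which strand. In the 416 windows with the strongest direction (the top 10%), Pol delta left 86.9%, 81.8%, 81.8% and 79.9% of its ends on the lagging strand and Pol epsilon left 77.5%, 81.3%, 83.9% and 86.3% on the leading strand (25 °C replicates 1 and 2, then 34 °C). The ranges overlapped, with means of 82.6% ± 3.0 and 82.2% ± 3.8 (SD, n = 4 each), a difference of 0.373 percentage points (exact permutation test, two-sided, p = 0.857, smallest possible 0.0286). The sign of that difference turned without the Pol delta or the Pol epsilon library of 25 °C replicate 1, to -1.06 and -1.21 points, and to -2.64 without both. It was -1.34 over 1385 windows of strong direction and -1.79 over all 4155.

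Averaged around 515 of 519 initiation sites located in stn1-226, the forward share of Pol delta passed from 63.0% to 68.1% on the left to 32.7% to 37.0% on the right over the 4 libraries. That of Pol epsilon passed from 33.8% to 38.0% on the left to 62.9% to 66.9% on the right. With libraries of a pair scaled to each other, the Pol delta share on the leading strand was 33.3% ± 1.5 at 0.3 to 0.6 kb, 30.4% ± 0.84 at 0.9 to 1.5 kb and 43.9% ± 0.59 at 9.3 to 13.5 kb (SD, n = 4 pairs). On the lagging strand the share was 68.4% ± 1.9, 72.1% ± 1.1 and 56.9% ± 0.15 at the same distances. In all 4 pairs the shares lay furthest from 50% at 0.9 to 1.5 kb and nearer to it farther out. Strands were assigned by the side of the site alone, and the part of forks from other sites in the values farther out was not tested.

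**Figure D2:**
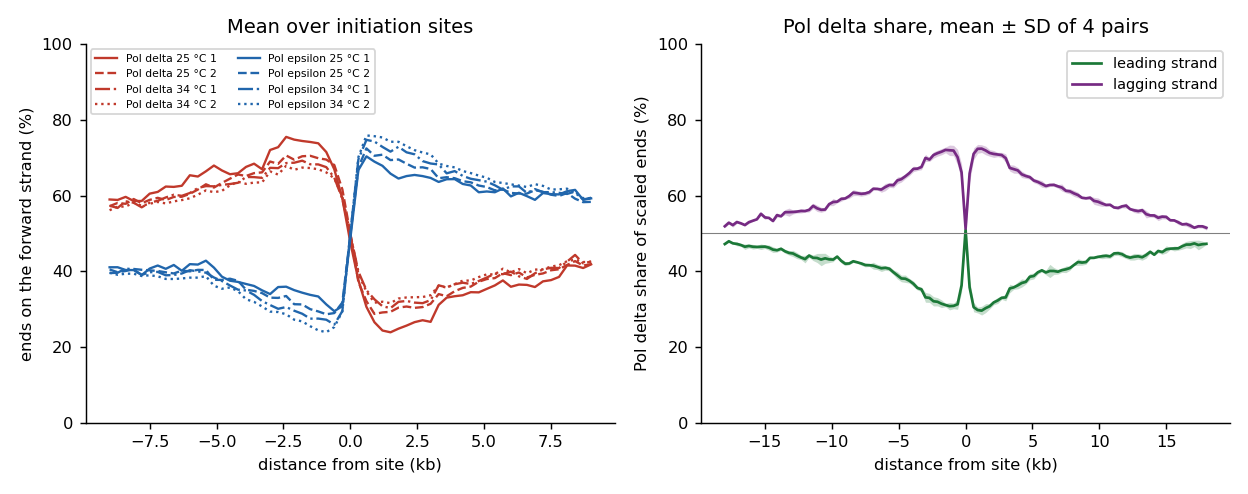
Left, mean percent of ends on the forward strand by distance from initiation sites in kb, 1 line per library. Right, mean Pol delta share of scaled ends with a band of ± SD over 4 pairs for the leading and the lagging strand, which reach 30.4% and 72.1% at 0.9 to 1.5 kb.

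The passage from 25% to 75% of the step was wider for Pol delta, at 0.486, 0.367, 0.436 and 0.384 kb, than for Pol epsilon, at 0.208, 0.231, 0.227 and 0.244 kb. No library overlapped, the difference was 0.191 kb, and the exact permutation test gave p = 0.0286, the smallest possible, or 0.143 adjusted over 5 measures, so it failed the correction. This measure was chosen after seeing the data and is near the bin width of 0.3 kb. Total ends within 5 bins of a site over those 15 to 45 bins away were -0.06 ± 0.06 for Pol delta and -0.05 ± 0.03 for Pol epsilon on the log2 scale (SD, n = 4 each, exact permutation p = 0.80).

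The mirror was close but not exact, and its quality differed between pairs. The log2 forward over reverse ratios of both polymerases correlated across 4180 windows at r = -0.32 in 25 °C replicate 1, -0.88 in 25 °C replicate 2, -0.78 in 34 °C replicate 1 and -0.89 in 34 °C replicate 2. Opposite strands led in 62.6%, 84.8%, 80.3% and 85.2% of windows. The 25 °C replicate 1 pair was the least mirrored. Windows share libraries and base composition, so these values are descriptions. The A minus T and G minus C skews were then fitted to the mean ratio of each pair. With the same fitted values subtracted from both libraries of the pair, the 4 correlations were -0.90, -0.93, -0.94 and -0.93. Taking variance out of the mean alone moves r toward -1 by construction, so these values do not test the part of the skews. An A minus T skew higher by 0.1 went with 2.04, 0.15, 0.65 and 0.19 more in the strand ratio shared by the pair on the log2 scale, and a G minus C skew higher by 0.1 with -1.41, -0.84, -1.54 and -0.90.

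**Figure D3:**
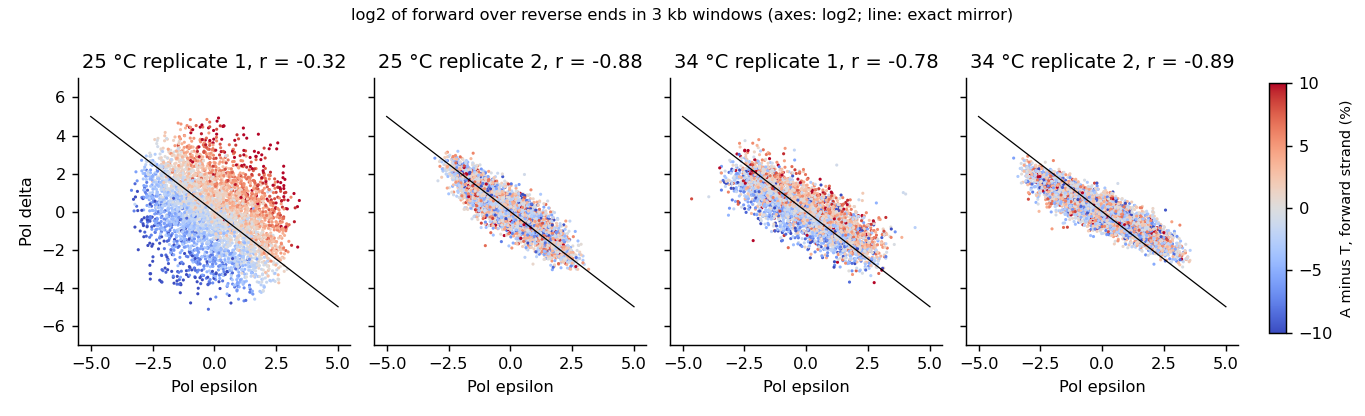
log2 ratio of forward to reverse ends in 4180 windows, Pol epsilon on the horizontal and Pol delta on the vertical axis, 1 panel per pair, coloured by A minus T of the forward strand in percent. The line is an exact mirror, and the spread along the other diagonal is widest in 25 °C replicate 1, where r is -0.32.

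The first kind of break is a strand favoured by both polymerases. It was called in 1135 windows (27.2%), 483 toward the forward strand (11.6%) and 652 toward the reverse strand (15.6%), by edgeR's quasi-likelihood test, and in 2066 with the replicate number as a block. The split by direction depended on the settings. It was 563 forward and 545 reverse with DESeq2 size factors, 994 and 977 by the DESeq2 test, and 1189 and 840 at 34 °C alone. With the replicate block it was 938 and 1128. The median size of the shared bias over all windows was 0.28, against 1.86 for the switch, both on the log2 scale. The main fit took libraries as independent, but same-numbered libraries deviated together in strand ratio (r = 0.814 at 25 °C, 0.610 at 34 °C). For a mean of both polymerases this understates the error, so the calls and adjusted p-values of the shared bias may be too favourable. A block on the replicate number takes that spread out of the error and does not correct this. The same strand led in all 8 libraries in 217 windows (5.19%). The count fell to 0 when any 1 of the 4 libraries of 34 °C was left out, and was 566 without Pol epsilon 25 °C replicate 1, 2213 without Pol delta 25 °C replicate 2, 1858 without the pair of 25 °C replicate 1 and 3029 without that of replicate 2.

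Windows named for bbc1, tgp1, cbs2, nup186 and bud6 were among the 10 with the largest forward bias of the called windows in which the same strand led in all 8 libraries. In that of bbc1, which holds the first printed sequence, Pol delta put 72.6%, 59.5%, 66.1% and 54.7% and Pol epsilon 78.7%, 69.4%, 83% and 75.5% of ends on the forward strand. Both polymerases were above 50% in every library, with a shared bias of 1.25 ± 0.19 (SE, log2, adjusted p = 0.00972, edgeR). With the fitted base skews as an offset the value was 0.03 (adjusted p = 0.816). In tgp1, a glycerophosphodiester transporter, all 8 libraries lay between 56.9% and 88.8%. The window of SPRRNA.48 on chromosome III had the highest value of these, 1.44, but lies in repeated ribosomal DNA, and how reads of repeats were placed is not stated.

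Under the same limit, the 10 with the largest reverse bias included glt1, ade1, dcd1, tif45 and rpb1. Called windows in which the libraries did not all lean 1 way, such as pho843 (-1.19) and alg9 (-1.14), are outside that limit. In glt1, glutamate synthase, Pol delta held 10.4%, 25.1%, 26.0% and 34.5% and Pol epsilon 19.1%, 43.8%, 33.9% and 42.3% on the forward strand. All 8 libraries were below 50%, and the shared bias was -1.39 ± 0.24 (SE, log2, adjusted p = 0.0114, edgeR), or -0.47 with the base offset (adjusted p = 0.00151). In rpb1, the largest subunit of RNA polymerase II, Pol delta held 36.9% to 47.0% and Pol epsilon 21.5% to 25.4%, with a value of -1.09, or -0.51 with the offset (adjusted p = 0.00143). The Tf2-2, Tf2-4, Tf2-5 and Tf2-9 retrotransposons, which are near-identical copies, were also among these 10, and their reads may be split among copies.

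Over all windows the shared bias correlated with A minus T at r = 0.57 and with G minus C at r = -0.36 (n = 4180). The A minus T relation came from the replicate 1 pairs: within pairs r was 0.87 and -0.05 at 25 °C (replicates 1 and 2) and 0.32 and -0.02 at 34 °C. That with G minus C was 0.04, -0.60, -0.58 and -0.51 in the same order. With base skews as an offset 1133 windows (27.1%) were called, 535 of which were also called without it. Of 379 windows at least 90% inside genes of the forward strand, 121 were called toward the reverse strand and 20 toward the forward strand (15.6% and 11.6% over all windows), with a median A minus T skew of -2.63%. Of 391 inside genes of the reverse strand, 99 were called toward forward and 21 toward reverse, with a skew of 2.37%. The medians of -0.25 and 0.26 became -0.05 and 0.01 with the base offset. By pair they were -0.73, -0.07, -0.18 and -0.05 for forward genes and 0.68, 0.09, 0.22 and 0.08 for reverse genes, so the pair of 25 °C replicate 1 was the furthest from 0. Pol delta was less forward in forward than in reverse genes in all 4 libraries (34.4% against 64.6% to 46.0% against 52.5%), while Pol epsilon was so in 25 °C replicate 1 (42.3% against 56.2%) and not in the other 3.

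The second kind of break is a window where both strands together hold more of 1 polymerase. It was called in 1260 windows (30.1%) by edgeR's quasi-likelihood test, 668 higher in Pol delta (16%) and 592 in Pol epsilon (14.2%), and the groups did not overlap in 1449 (34.7%). The count was 527, 464, 707 and 433 without Pol delta replicate 1 or 2 or Pol epsilon replicate 1 or 2 at 34 °C, and 0 at 25 °C alone. In the window of SPAC1071.09C Pol delta held 666, 373, 395 and 404 CPM (ends scaled to a common library total outside the ends of chromosome III) and Pol epsilon 146, 175, 201 and 191. Pol delta was higher in every library, by 1.38 ± 0.20 (SE, log2, adjusted p = 0.00236, edgeR). Windows named for this break were picked among called windows whose groups did not overlap, so the lack of overlap was fixed by the choice. In ags1, a cell wall alpha-glucan synthase, Pol delta held 636, 358, 416 and 361 and Pol epsilon 110, 187, 201 and 196, a difference of 1.37 ± 0.22 (adjusted p = 0.0034, edgeR). Windows of fml1, a DNA helicase, and raf2, a heterochromatin factor, were higher in Pol delta by 1.13 and 1.07.

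Pol epsilon led in nup124, a nucleoporin, with 415, 362, 304 and 318 CPM against 175, 161, 195 and 183 for Pol delta. The groups did not overlap, as the choice of named windows required, and the value was -0.95 ± 0.11 (SE, log2, adjusted p = 0.00154, edgeR). Windows of alg9, a mannosyltransferase, and kap123, a nuclear import receptor, had -0.82 each. With the log ratios of both strands averaged, 18 of the 20 named windows were still called by limma, kap123 (-0.29, adjusted p = 0.0932) and pho842 (-0.32, 0.110) were not, and 17 values shrank by more than 1.5 times, ags1 to 0.67, raf2 to 0.58 and nup124 to -0.43.

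These totals moved with the first break, in part by construction. A shared bias toward the strand where Pol delta leads weights its larger strand and the smaller strand of Pol epsilon. Summed ends then rise for Pol delta and fall for Pol epsilon with no change in the averaged log ratios. The calls by extreme and the correlation for summed ends, given next, therefore do not test a link between the breaks. In the 836 windows whose shared bias lay most toward the strand of Pol delta, 321 were called higher in Pol delta and 31 in Pol epsilon. In the 836 at the opposite extreme, 10 were called higher in Pol delta and 297 in Pol epsilon. The correlation was 0.53 across 4180 windows for summed ends and 0.18 when the log ratios of both strands were averaged instead. With that average, limma called 1162 windows (27.8%), 877 of them shared with the summed ends. In bulk DNA, more ribonucleotides per molecule and more molecules of a region cannot be told apart.

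The ends of chromosomes I and II held more Pol epsilon ends on both measures. In the outer 50 kb the median window, relative to the genome, was 0.90, 0.92, 0.96 and 0.92 in Pol delta and 1.20, 1.14, 1.19 and 1.14 in Pol epsilon. The groups did not overlap, at 0.92 ± 0.03 and 1.17 ± 0.03 (SD, n = 4 each). Of 67 windows, 42 were called higher in Pol epsilon and 0 in Pol delta by edgeR (14.2% and 16% over all windows), and the averaged log ratios gave 49 and 0. The difference was -0.42 ± 0.12 in the outer 10 kb, -0.33 ± 0.09 at 40 to 50 kb, -0.17 ± 0.08 at 50 to 100 kb and 0.06 ± 0.03 at 100 to 150 kb (log2, SD, n = 4 pairs). The ends were not alike: the right end of chromosome II was still below 0 at 100 to 150 kb in all 4 pairs (mean -0.24), and the left end of chromosome II at 50 to 100 kb was below 0 in 2 of 4. With 1 library left out the count was 12 (Pol delta 34 °C replicate 2) to 40 (Pol epsilon 25 °C replicate 2), and also under 28 without Pol epsilon 25 °C replicate 1 or any other library of 34 °C. It was 34 without 25 °C pair 1, 40 without pair 2 and 0 at 25 °C alone, where all 67 windows were below 0. In the stn1-226 libraries the same windows held 0.808 to 0.879 in Pol delta and 0.902 to 1.15 in Pol epsilon (n = 4 each). The ends of chromosome III, beside the ribosomal DNA, went the other way, with 9 of 25 windows called higher in Pol delta and 0 in Pol epsilon. The share called there was 36%, all toward Pol delta, against 16% of all windows in that direction and 30.1% in either direction. The median window there, relative to the genome, was 1.04 ± 0.05 in Pol delta and 0.91 ± 0.03 in Pol epsilon (SD, n = 4 each).

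**Figure D4:**
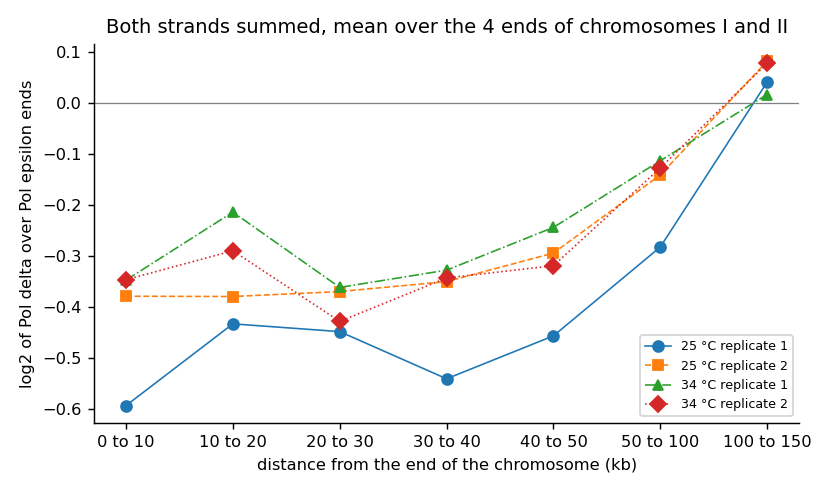
log2 of Pol delta over Pol epsilon total ends by distance from the ends of chromosomes I and II in kb, 1 line per pair. Averaged over the 4 ends, all 4 pairs lie below 0 out to 100 kb and above 0 at 100 to 150 kb.

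Other annotated classes gave smaller shares of calls than the ends of chromosomes I and II. Windows with tRNA genes had 33 of 136 called higher in Pol delta and 12 in Pol epsilon, and those with ribosomal protein genes 38 and 8 of 162. Centromeres had 10 and 0 of 43, and genes over 5 kb had 55 and 80 of 434. The shares called in either direction were 33.1%, 28.4%, 23.3% and 31.1%, near or below the 30.1% of all windows. By direction, 16% of all windows were called higher in Pol delta and 14.2% in Pol epsilon. Against that, calls in tRNA, ribosomal protein and centromere windows leaned to Pol delta, and those in genes over 5 kb to Pol epsilon.

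A stretch beside mat1 held a Pol delta excess on the forward strand in all 4 pairs. On the reverse strand Pol delta was the higher in the replicate 2 pairs and the lower in the replicate 1 pairs. The mat1 cassette sets the mating type, and barriers that stop forks from 1 side are known to keep its replication in 1 direction. The window whose first 27 bp hold the end of mat1-Mc had 388, 746, 889 and 680 CPM in Pol delta and 268, 253, 339 and 312 in Pol epsilon, a difference of 1.21 ± 0.25 (SE, log2, adjusted p = 0.00709, edgeR). Within it, 6 adjoining bins at chrII:2115301-2117100, largely inside the long non-coding RNA SPNCRNA.388, were singled out after their values were seen. On the forward strand they held 3.23, 6.10, 10.3 and 4.67 times the library's mean per strand in Pol delta and 0.69, 0.49, 1.32 and 0.65 in Pol epsilon. On the reverse strand they held 1.02, 2.38, 0.75 and 3.49 in Pol delta and 2.19, 1.79, 2.20 and 2.57 in Pol epsilon. The groups did not overlap on the forward strand and overlapped on the reverse strand. The stretch includes the last printed sequence, with its 8 G in 300 bases, and the part of base composition in the excess was not tested. In stn1-226 both polymerases were high there, at 2.89 to 10.8 and 3.41 to 8.31 times the mean bin.

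**Figure D5:**
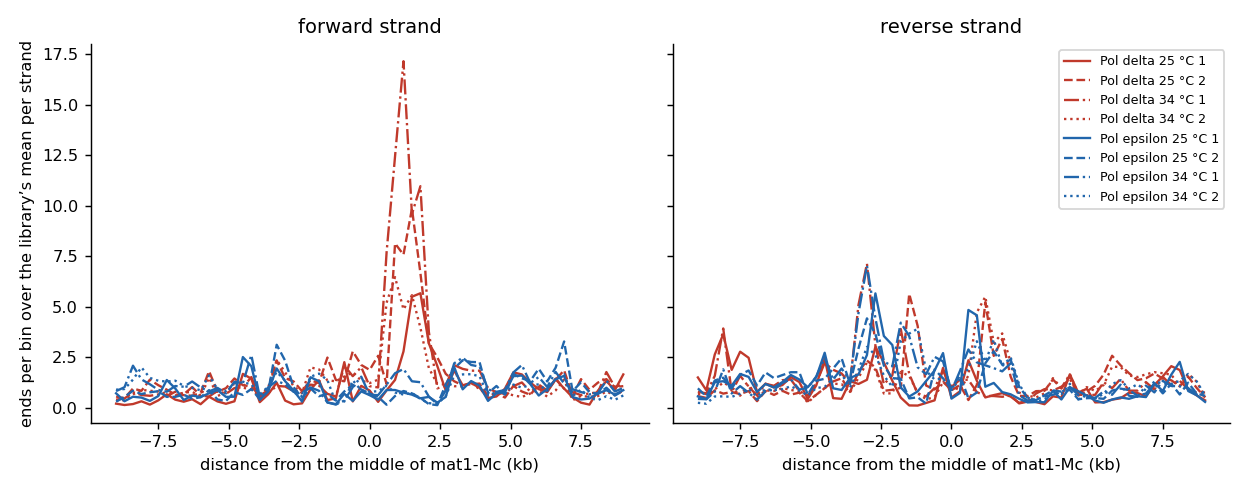
Ends per 300 bp bin over the library's mean per strand, by distance from the middle of mat1-Mc in kb, forward and reverse strands in separate panels. Over the stretch beside mat1-Mc the forward strand reaches 3.23 to 10.3 on average in Pol delta and 0.49 to 1.32 in Pol epsilon.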

How the data were processed

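The authors deposited whole-number counts of ends per 300 bp bin and strand, 1 file per strand and library. Reads were aligned with Bowtie2 per the submitters' processing notes, whose version, like the build, was not given in the sources used here. Chromosome III positions in files with 8084 bins were moved by 15000 bp. The profiles of all libraries then matched best with no further shift.

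Counts were summed over 10 bins (3000 bp) and tested in edgeR 4.0.16 (R 4.3.3) by quasi-likelihood with TMM scaling, a mean of at least 10 ends, and Benjamini-Hochberg adjustment at 0.05. The strand fit used 16 columns with the library as a block, the total fit 8, and each left 4 residual degrees of freedom. limma 3.58.1 and DESeq2 1.42.0 gave alternatives. Ratios used a pseudocount of 1 end. Fits were tested on simulated data. Same-numbered libraries deviated together in strand ratio (r = 0.814 at 25 °C, 0.610 at 34 °C), from the replicate numbers in the titles. Windows were named by the gene covering most of them: the 5 (switch) or 10 (breaks) largest called in each direction, for the strand bias among windows with the same strand ahead in all 8 libraries and for the totals among windows without overlap. Members and lists were chosen with earlier results of these data known.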

Additional observations from a re-analysis of the deposited data

Results flagged for a closer look

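In groups of 4 libraries, 14 of 118 sets of values had 1 library far from the other 3. The cut passes about 1 in 20 independent sets of normal values. These sets share libraries, and many are windows named for large values, so the count is a description and no test against chance. Of the 14, 8 were Pol epsilon at 25 °C, replicate 1. It held 68.8% of ends on the forward strand at bud6 (others 55.6% to 55.7%), 18.5% at Tf2-2 (32.9% to 34.0%) and 26.9% at Tf2-9 (44.4% to 47.8%). It held 110 CPM at ags1 (187 to 201), 117 at fml1 (230 to 235) and 483 at acl1 (296 to 327). Its ends over leu1 were 1.42 times the median bin (1.01 to 1.07), and its log2 ratio of ends at initiation sites to flanks was -0.10 (-0.04 to -0.03).

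Pol delta at 25 °C, replicate 1, held 666 CPM at SPAC1071.09C (others 373 to 404) and 474 at pfl3 (242 to 251). Pol delta at 25 °C, replicate 2, had a ratio of sites to flanks of 0.0320 (-0.11 to -0.09) and 1.27 times the median bin over ura4 (0.00104 to 0.103). Pol epsilon at 25 °C, replicate 2, held 0.295 over ura4 (0 to 0.0350). Pol epsilon at 34 °C, replicate 1, held 250.5 CPM at pho843 (198 to 206).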

How the results depend on the processing

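The strand switch stayed within 1.5 times of 3295 windows under the 19 alternatives fitted on windows, with 3041 to 3433 leaving out 1 library, and was called in 65.1% of 41811 single bins of 300 bp against 78.8% of windows. The bias shared by both polymerases (1135) was the least stable: 1971 by DESeq2, 2066 with the replicate block, 2766 with a pair block within temperature, 0 to 2213 leaving out 1 library, 3029 without 25 °C pair 2, 1858 without pair 1, 0 at 25 °C alone (675 with an unadjusted p under 0.05) and 2029 at 34 °C alone. The polymerase bias of both strands (1260) gave 433 to 1325 leaving out 1 library, 0 at 25 °C alone (1195 unadjusted), 339 at 34 °C alone and 1613 of 41811 single bins of 300 bp. It gave 1397 with the replicate block. Deviations of same-numbered libraries in totals correlated at r = -0.12 at 25 °C and 0.689 at 34 °C. A pair block within temperature gave 1059 calls, and 1749 with the numbers crossed at 25 °C. The temperature difference gave 12 windows without 25 °C pair 1 and 0 leaving out any 1 library. The own-strand difference of 0.373 points turned to -1.06 and -1.21 without Pol delta or Pol epsilon of 25 °C replicate 1, -2.64 without that pair, -1.34 over the 1385 windows of strongest fork direction and -1.79 over all 4155, and ranged from -1.21 to 1.72 leaving out 1 library. The site total of -0.01 turned to 0.0011 without Pol delta of 25 °C replicate 1 and to 0.0311 with flanks of 30 to 60 bins, ranging from -0.0456 to 0.0011. The cause of these changes was not tested. Alternatives chosen after seeing the data were those without pair 1, the base offset, the pair blocks and the averaged log ratios. The replicate block moved no other count by over 1.5 times.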

Other observations

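The tlh1 and tlh2 genes, helicase genes at the outermost ends of chromosomes I and II, held 2.69 to 4.71 times the median bin in all 8 libraries. Bins inside ade6 held 0.977 to 1.48 times the median bin in Pol delta and 0.812 to 1.13 in Pol epsilon. Log2 totals of replicate 2 correlated at 0.94 between 25 °C and 34 °C in Pol delta (n = 4180 windows), against 0.60 between replicates 1 and 2 at 25 °C.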
